A study of Mus musculus with 10 samples.

Results

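Inflammatory genes of the mouse left ventricle were compared between the lateral wall and the septal wall. The set comprised 49 genes for cytokines, chemokines, their receptors and signalling partners, macrophages and complement. They were matched to the array annotation by gene symbol, and the set was drawn up with earlier results of these data known. Of these, 43 were found among the 16504 named genes of the array, on 44 features. Il1rl1, Nfkb1, Cd68, Csf1r, C3 and Cfd were not analysed here. The 43 genes were described in 5 groups, with 8 genes for cytokines and their receptors, 14 for chemokines, 8 for adhesion, signalling and acute mediators, 8 for macrophages and 5 for complement.

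RNA from both walls of a heart had been labelled with Cy3 and Cy5 and hybridised together, once in each dye orientation. There were 4 hearts of dyssynchronous mice, numbered 1, 3, 4 and 5, in which uncoordinated contraction of the walls is tied by the design to an implanted pacemaker. The control was a single pool of RNA from synchronous mice, also split into a septal and a lateral sample, so it has no replicate and hides the spread between control animals. Strain, age, sex, time after implantation and the number of pooled animals are absent from the labels. The wall of each pool sample was read from the last letter of its label, S or L.

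Each value is the lateral level over the septal level on the log2 scale, as the mean of both arrays of a heart, so a value above 0 is higher laterally and 0.58 is a 1.5-fold difference. The deposited ratios state neither their log base nor their direction. They were taken as log10 of Cy5 over Cy3 and turned by the dye labels. After turning, the atrial light chain gene Myl7 was at -4.65 with lateral RNA in Cy5 and at -4.44 with lateral RNA in Cy3, below 0 on 8 of 8 arrays, with the pool at -0.12. The smooth muscle gene Cnn1 was at 1.15 and 0.55, above 0 on 8 of 8 arrays. The deposited signs of both genes thus changed with the dye labels, as those of ratios not yet turned do. For the 43 genes the 2 arrays of a heart, as deposited, correlated across genes at -0.14 in heart 1, 0.24 in heart 3, -0.01 in heart 4 and -0.48 in heart 5. The pool had -0.08. Across all genes the same correlation lay between 0.17 and 0.35. For ratios of Cy5 over Cy3, a repeatable wall difference gives a correlation below 0 and a dye bias one above 0. The values over all genes were thus on the side of a dye bias, unlike the signs of Myl7 and Cnn1. Arrays of 1 heart share RNA and dye bias, and genes are not independent replicates. A ratio carries no level, so the labelled tissue could not be checked against its markers, and a lower number of cells of a type cannot be told apart from less RNA per cell.

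Chemokines are small secreted proteins that draw leukocytes into tissue, and cytokines such as tumour necrosis factor and the interleukins alter contraction, matrix and immune cell state. In the heart, resident macrophages sit between cardiomyocytes, clear debris and make complement C1q, while monocytes enter after injury or under abnormal load. NF-kappaB and STAT3 pass the cytokine signals on to the nucleus, and adhesion molecules on endothelium hold passing leukocytes.

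No inflammatory gene differed between the walls past the adjusted threshold. limma on the averaged dye swaps called 0 of the 43 at an adjusted p under 0.05, against 0.0% of all 16504 genes, and the lowest adjusted p among the 43 was 0.721, for Cxcl14. At an unadjusted p under 0.05, 8 of the 43 (18.6%) lay on the lateral side, against 2.66% of all genes, and 0 on the septal side, against 3.0%. Means were above 0 for 30 of the 43 (69.8%), against 50.9% of all genes. The median of the 43 means was 0.068, with 0.0026 over all genes. It depended on the dye orientation, at 0.18 with lateral RNA in Cy5 and 0.04 with lateral RNA in Cy3. Over all genes these medians were 0.03 and -0.02. In all 4 hearts together 8 genes (18.6%) were above 0, against 7.8% of all genes, and 0 were below 0, against 7.63%. With both sides counted, the number of one sign was 18 without heart 1 (Il10 septal) and 13 without heart 3 (Il1b and Vcam1 septal). One sign over the 3 hearts that remained is easier to meet than over 4, and its share over all genes was not computed. With 4 hearts an exact sign-flip permutation test cannot give a two-sided p below 0.125. No member was beyond 1.5-fold in all hearts, and 13 (30.2%) were so in at least 1 heart, close to the 30.9% of all genes.

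**Figure D1:**
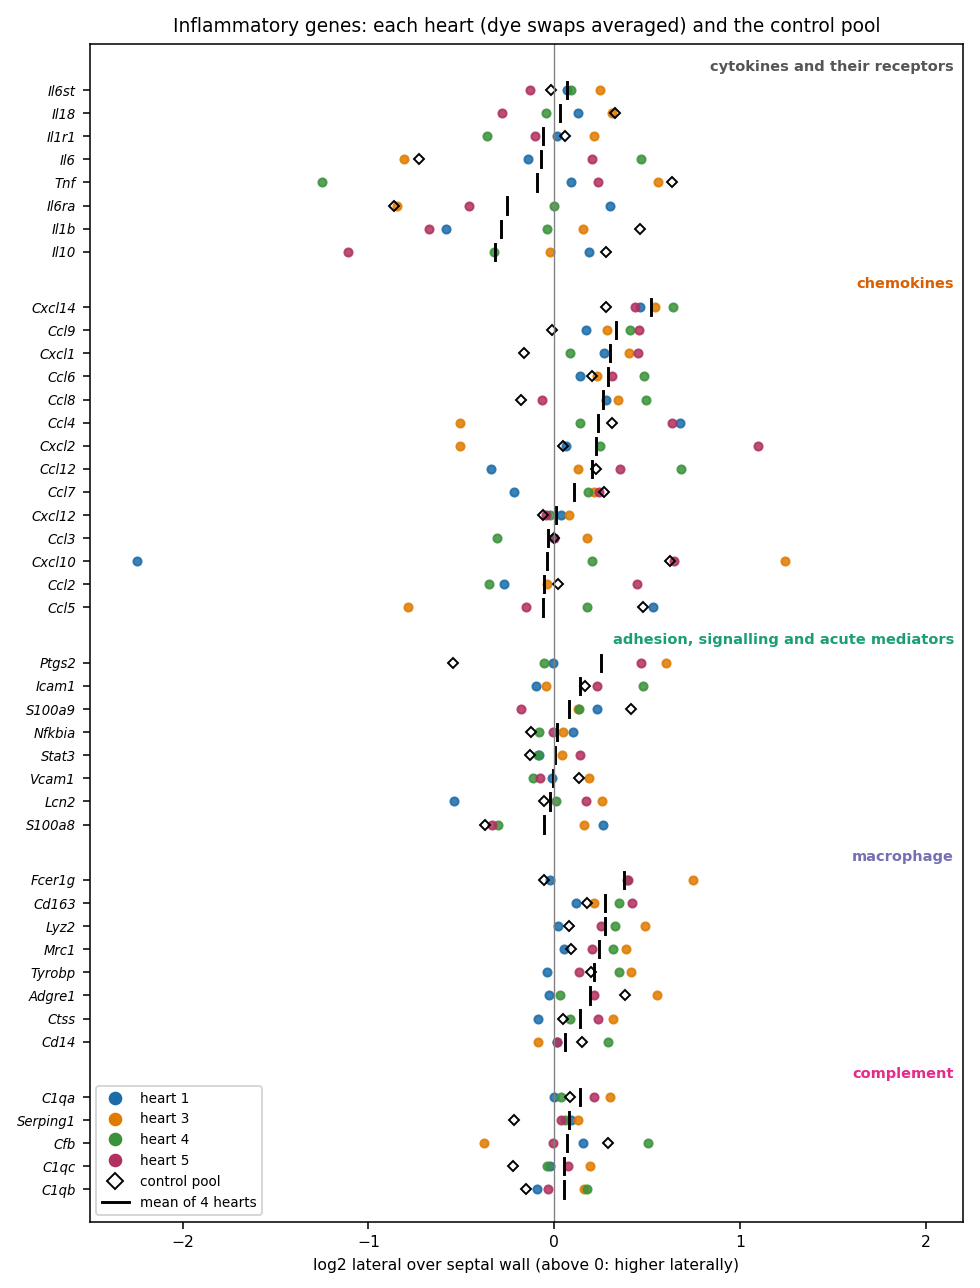
The log2 ratio of lateral over septal wall is plotted on the horizontal axis for each of the 43 genes, with filled circles for the 4 dyssynchronous hearts, open diamonds for the control pool and black bars for the mean of the hearts. The 8 macrophage means all lie right of 0, between 0.057 and 0.38, whereas the 4 hearts of Cxcl10 are spread from -2.24 to 1.24.

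The chemokines held 4 of the 8 genes above 0 in every heart, and the means of 10 of the 14 were above 0 (median 0.21). The chemokine median was 0.29 with lateral RNA in Cy5 and 0.08 with lateral RNA in Cy3. Cxcl14, a chemokine made by epithelial and stromal cells, stood at 0.46, 0.54, 0.64 and 0.44 in hearts 1, 3, 4 and 5, a mean of 0.52 ± 0.09 (SD, n = 4 hearts) or 1.43-fold (95% interval 0.36 to 0.68, limma adjusted p 0.721). The hearts lay close together, all above the pool at 0.28. On single arrays Cxcl14 was between 0.54 and 0.85 with lateral RNA in Cy5 and between 0.12 and 0.49 with lateral RNA in Cy3, so both orientations had the lateral side higher, on 8 of 8 arrays. When limma was run on the 8 heart arrays and 2 pool arrays separately, blocked by heart and adjusted for dye, it called Cxcl14 alone among the 43 (adjusted p 0.0491), with 0.121% of all genes called. In that fit both arrays of a heart count almost as separate hearts (correlation within hearts -0.049), which overstates the number of replicates.

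Ccl9 and Ccl6, CC chemokines of myeloid cells whose genes neighbour each other on chromosome 11, were also above 0 in every heart. Ccl9 stood at 0.17, 0.29, 0.41 and 0.46 in hearts 1, 3, 4 and 5 (mean 0.33 ± 0.13, adjusted p 0.797), and the pool was at -0.013. Ccl6 stood at 0.14, 0.23, 0.485 and 0.31 (mean 0.29 ± 0.15, adjusted p 0.797), and the pool at 0.20 fell within the range of the hearts. Ccl6 was above 0 on 8 of 8 arrays, and Ccl9 on 7, with -0.17 in heart 4 on the array with lateral RNA in Cy3. On all 8 arrays 3 members (6.98%) were above 0, namely Ccl6, Cxcl14 and Cd163, against 0.648% of all genes. Along chromosome 11 the CC chemokine genes next to this pair had hearts on both sides of 0 or at 0. Ccl5, on the Ccl9 side, was at 0.53, -0.79, 0.18 and -0.15, and Ccl3 and Ccl4, on the Ccl6 side, had means of -0.034 ± 0.20 and 0.24 ± 0.55. Ccl3 was exactly 0 on 7 of 10 arrays, and no source says what such zeros stand for.

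Cxcl1, a neutrophil attractant, was at 0.27, 0.40, 0.09 and 0.45 in hearts 1, 3, 4 and 5 (mean 0.30 ± 0.16, adjusted p 0.797), all above the pool at -0.16. Cxcl2, which acts on the same receptor, was at 0.06, -0.51, 0.25 and 1.09, with hearts 3 and 5 far apart. Among the monocyte attractants, Ccl8 was at 0.28, 0.34, 0.49 and -0.07, Ccl12 at -0.34, 0.13, 0.68 and 0.35, Ccl7 at -0.22, 0.22, 0.18 and 0.24, and Ccl2 at -0.27, -0.04, -0.35 and 0.45. Each of these 4 genes had hearts on both sides of 0. Cxcl10, an interferon-induced attractant of T cells, had the widest spread of the 43 genes, at -2.24, 1.24, 0.20 and 0.65 (mean -0.04 ± 1.53). In heart 1 its arrays were at -0.40 and -4.09 and in heart 3 at 2.48 and exactly 0. Cxcl12, the stromal chemokine that retains leukocytes through Cxcr4, had the narrowest range among chemokines, -0.04 to 0.08 (mean 0.01 ± 0.06, 95% interval -0.13 to 0.15).

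Promoter windows of RefSeq (build GRCm38.p6, 250 bases before to 50 after the start) were found for 31 of the 43 genes and for 7 of the 8 that were above 0 in all hearts. The windows were searched on both strands for the NF-kappaB consensus and for the PU.1 core AGGAAGT, PU.1 being a transcription factor of myeloid cells. The NF-kappaB consensus was found in 8 of the 31 genes (25.8%), against 5.14% of all 27025 genes with a window, and the PU.1 core in 11 of 31 (35.5%), against 10.7%. Among the 7 genes above 0 in all hearts, 2 had the first and 3 the second, which shows which letters are present and not which factor binds. The 4 chemokines above 0 in every heart and the macrophage gene Lyz2 are shown, the latter as 1 of the 2 macrophage genes above 0 in all hearts whose windows hold a PU.1 core (Mrc1 is the other). Capitals mark a match, read on the strand of the gene 5′ to 3′. The sites of Ccl6, Ccl9 and Lyz2 match on the opposite strand, and the site of Cxcl1 matches on both, in 2 overlapping positions.
Cxcl14, chr13:56296502-56296801, minus strand, neither motif: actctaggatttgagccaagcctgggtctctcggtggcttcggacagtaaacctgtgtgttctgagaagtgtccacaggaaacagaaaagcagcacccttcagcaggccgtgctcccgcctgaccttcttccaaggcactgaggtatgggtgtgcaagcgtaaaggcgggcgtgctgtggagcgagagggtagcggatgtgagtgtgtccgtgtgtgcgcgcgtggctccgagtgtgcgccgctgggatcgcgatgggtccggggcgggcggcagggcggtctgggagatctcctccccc
Cxcl1, chr5:90890995-90891294, plus strand, NF-kappaB consensus 71 bases before the start: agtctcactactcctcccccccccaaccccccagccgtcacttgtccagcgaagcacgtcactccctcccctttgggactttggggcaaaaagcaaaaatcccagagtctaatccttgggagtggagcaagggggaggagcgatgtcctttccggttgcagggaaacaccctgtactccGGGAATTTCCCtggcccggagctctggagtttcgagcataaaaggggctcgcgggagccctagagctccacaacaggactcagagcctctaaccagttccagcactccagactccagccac
Ccl9, chr11:83578587-83578886, minus strand, NF-kappaB consensus 35 bases before the start: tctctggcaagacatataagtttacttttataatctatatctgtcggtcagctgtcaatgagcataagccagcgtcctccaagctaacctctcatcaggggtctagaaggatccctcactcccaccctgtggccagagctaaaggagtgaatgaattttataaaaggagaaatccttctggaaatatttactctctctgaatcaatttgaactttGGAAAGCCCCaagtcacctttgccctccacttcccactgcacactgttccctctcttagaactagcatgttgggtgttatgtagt
Ccl6, chr11:83593038-83593337, minus strand, PU.1 core 48 bases before the start: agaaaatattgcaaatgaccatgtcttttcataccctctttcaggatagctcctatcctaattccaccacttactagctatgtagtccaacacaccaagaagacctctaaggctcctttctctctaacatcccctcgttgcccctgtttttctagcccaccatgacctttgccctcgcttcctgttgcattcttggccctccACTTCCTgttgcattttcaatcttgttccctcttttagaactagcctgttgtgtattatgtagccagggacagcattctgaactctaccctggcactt
Lyz2, chr10:117282223-117282522, minus strand, PU.1 core 100 bases before the start: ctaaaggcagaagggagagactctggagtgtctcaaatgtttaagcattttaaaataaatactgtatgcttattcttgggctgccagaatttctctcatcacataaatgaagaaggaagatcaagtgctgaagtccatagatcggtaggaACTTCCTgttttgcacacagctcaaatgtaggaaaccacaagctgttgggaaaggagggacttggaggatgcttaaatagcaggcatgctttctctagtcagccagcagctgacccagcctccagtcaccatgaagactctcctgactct

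Of the neighbours, Ccl9 had the NF-kappaB match and Ccl6 the PU.1 core, with heart means of 0.33 and 0.29. Cxcl10 and Cxcl2, whose hearts lay on both sides of 0, each had 2 NF-kappaB matches, counted over both strands. Cxcl1 also had 2, which overlap. The positions of the matches in Cxcl10 and Cxcl2 were not compared, so these may overlap too. Whether these motifs bear on the wall ratios was not tested.

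**Figure D2:**
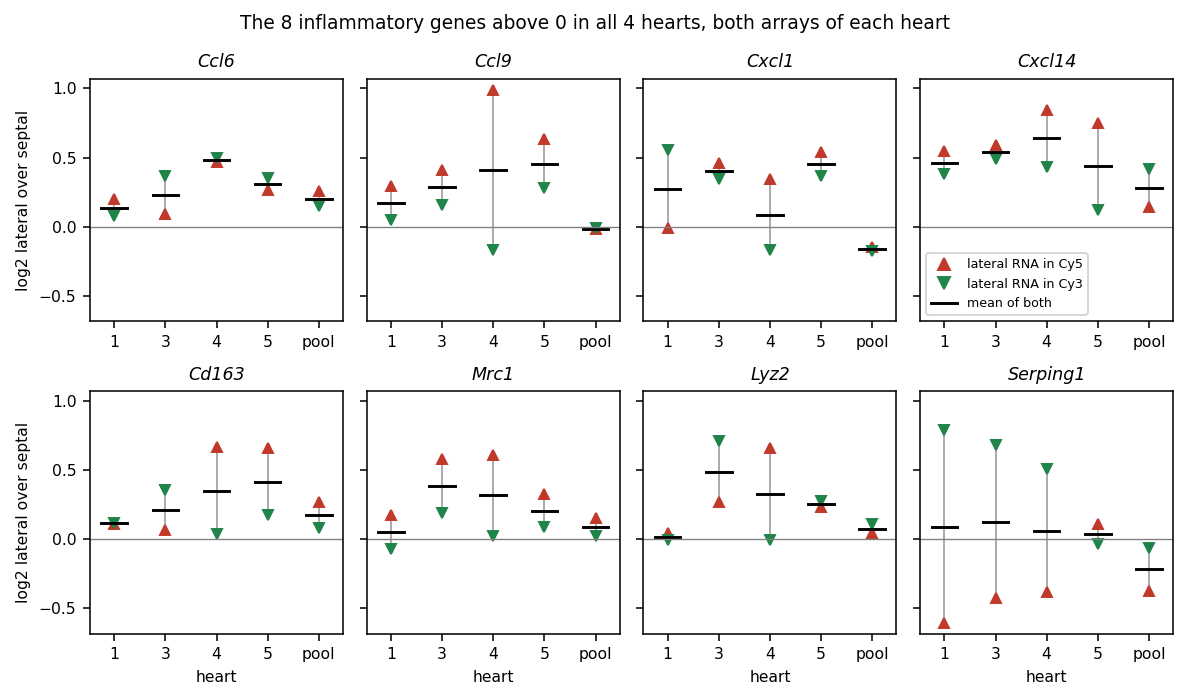
For the 8 genes above 0 in all 4 hearts, the log2 ratio of lateral over septal wall is plotted for both arrays of each heart and of the control pool, with upward triangles for lateral RNA in Cy5, downward triangles for lateral RNA in Cy3 and bars for their mean. The 2 arrays lie on the same side of 0 in every heart for Cxcl14, Ccl6 and Cd163, and on opposite sides in all 4 hearts for Serping1.

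Cytokines and their receptors showed no shared side. The means of 2 of the 8 genes were above 0 and of 6 below (median -0.082), and 0 had one sign in all hearts. Tnf, the gene of tumour necrosis factor, was at 0.09, 0.56, -1.25 and 0.23 in hearts 1, 3, 4 and 5, so heart 4 alone was on the septal side, on both of its arrays (-1.06 and -1.44). The pool was at 0.63 for Tnf, from arrays at 1.25 and 0.02. Il1b, the gene of interleukin-1 beta, was at -0.58, 0.16, -0.04 and -0.67 (mean -0.29 ± 0.41, adjusted p 0.797). Its mean was 0.35 over the arrays with lateral RNA in Cy5 and -0.92 over those with lateral RNA in Cy3, so the dye orientation moved it more than the wall did. The anti-inflammatory Il10 was at 0.19, -0.02, -0.33 and -1.11 (mean -0.32 ± 0.57), with heart 5 lowest.

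Il6 was at -0.14, -0.81, 0.47 and 0.20 in hearts 1, 3, 4 and 5 and had exact zeros on 5 of 10 arrays. Of its receptor, the binding chain Il6ra was at 0.30, -0.85, 0 and -0.46, where the 0 is the mean of arrays at -0.04 and 0.04 and the value of heart 3 comes from arrays at 1.06 and -2.75. The signalling chain Il6st, shared by the interleukin-6 family, had a mean of 0.07 ± 0.15 over 2 features that differed. One feature had a mean of -0.07 ± 0.05 and was below 0 in all hearts, and the other had 0.21 ± 0.31 and 3 exact zeros. The interleukin-1 receptor Il1r1 was at -0.06 ± 0.24 and Il18, an inflammasome product, at 0.03 ± 0.25. The median SD between hearts in this group was 0.46, against 0.23 over all genes.

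Genes of adhesion and signalling lay near 0. Nfkbia, the NF-kappaB inhibitor that NF-kappaB itself induces, was at 0.10, 0.05, -0.08 and -0.01 in hearts 1, 3, 4 and 5 (95% interval of the mean -0.14 to 0.17). Stat3, the transcription factor downstream of interleukin-6, was at -0.08, 0.04, -0.09 and 0.14 (95% interval -0.17 to 0.18). The endothelial adhesion molecule Vcam1 ranged from -0.11 to 0.19 (95% interval -0.20 to 0.19). Each of these intervals excludes a 1.5-fold difference of the mean in either direction, under the spread that limma estimates. Icam1, the ligand of leukocyte integrins, was at -0.10, -0.04, 0.48 and 0.23, with hearts 4 and 5 on the lateral side.

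Acute mediators were more variable. Ptgs2, the inducible cyclooxygenase, was at -0.01, 0.60, -0.06 and 0.47 (mean 0.25 ± 0.33), with hearts 3 and 5 above and the others next to 0, and with exact zeros on 5 of 10 arrays. The neutrophil proteins S100a8 and S100a9, which form a heterodimer, had means of -0.05 ± 0.31 and 0.08 ± 0.18. The iron-binding Lcn2 was at -0.54, 0.26, 0.01 and 0.17, with heart 1 on the septal side on both arrays. Other neutrophil markers had a median of 0.021 over 9 genes, with 0 of one sign in all hearts.

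The means of 8 of 8 macrophage genes were above 0 (median 0.23), and 3 genes were above 0 in all hearts. The scavenger receptor Cd163, a marker of resident macrophages, was at 0.11, 0.21, 0.35 and 0.42 in hearts 1, 3, 4 and 5 (mean 0.27 ± 0.14, adjusted p 0.797), and the pool at 0.18 lay within that range. Mrc1, the mannose receptor, was at 0.05, 0.39, 0.32 and 0.21 (mean 0.24 ± 0.15, adjusted p 0.797) with a pool of 0.09. Lyz2, the macrophage lysozyme, was at 0.02, 0.49, 0.33 and 0.25 (mean 0.27 ± 0.19, adjusted p 0.797) with a pool of 0.08. For all 3 genes heart 1 was lowest.

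Fcer1g and Tyrobp, adaptor proteins of activating myeloid receptors, were at -0.02, 0.75, 0.39 and 0.40 and at -0.04, 0.41, 0.35 and 0.13 in hearts 1, 3, 4 and 5. Adgre1, the adhesion receptor widely used to mark mouse macrophages, was at -0.03, 0.55, 0.03 and 0.21, below the pool at 0.38 in 3 of 4 hearts. The lysosomal protease Ctss was at -0.09, 0.32, 0.08 and 0.24, and Cd14, the co-receptor for bacterial lipopolysaccharide, at 0.01, -0.09, 0.29 and 0.01. In heart 1 the 8 genes lay between -0.09 and 0.11, with 4 on either side of 0, while 7, 8 and 8 of them were above 0 in hearts 3, 4 and 5. The group median was -0.0047 in heart 1, 0.40 in heart 3, 0.32 in heart 4 and 0.22 in heart 5, and 0.12 in the pool.

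The dye orientation moved these medians. Over the arrays with lateral RNA in Cy5 the macrophage median was 0.36, and over those with lateral RNA in Cy3 it was 0.08. Heart 4 had medians of 0.52 and 0.01 in the 2 orientations, whereas heart 3 had 0.38 and 0.39. After turning, the 2 arrays had the same sign for 1 of 8 macrophage genes in heart 1, 7 in heart 3, 4 in heart 4 and 7 in heart 5. Over all genes the share with the same sign was 37.7% to 44.9% in the 4 hearts.

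**Figure D3:**
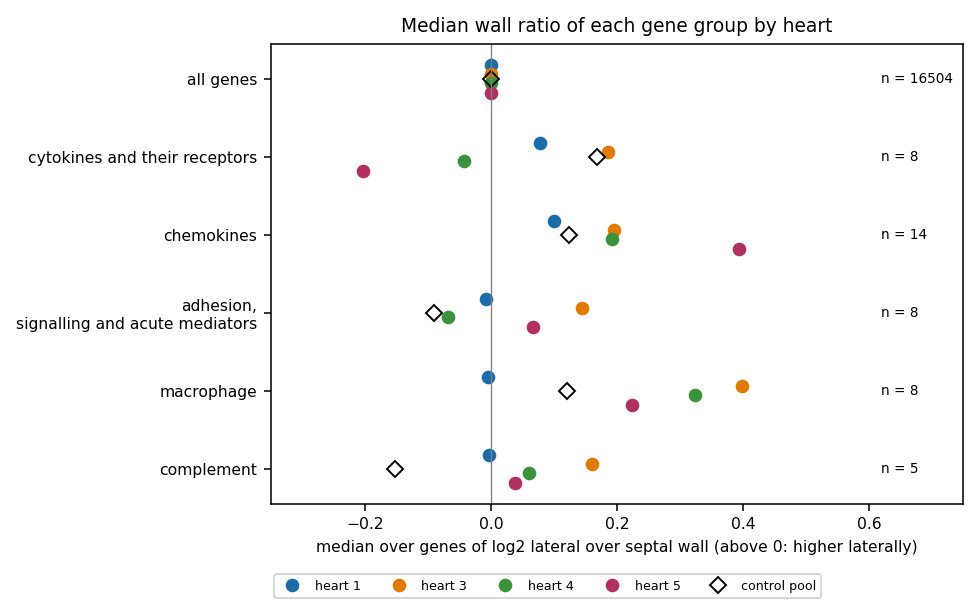
The median log2 ratio of lateral over septal wall over the genes of each group is plotted for each heart (circles) and the control pool (diamonds), with the number of genes at the right. Macrophage medians run from -0.0047 in heart 1 to 0.40 in heart 3, chemokine medians from 0.10 to 0.39, and the medians of all genes stay next to 0.

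Complement genes had means above 0 in 5 of 5 cases, all small (0.051 to 0.14, median 0.068). C1qa, C1qb and C1qc encode the 3 chains of C1q, which starts the classical pathway and is made by macrophages. C1qa was at -0.0039, 0.30, 0.04 and 0.21 in hearts 1, 3, 4 and 5 (mean 0.14 ± 0.14, adjusted p 0.797), with hearts 3 and 5 higher. C1qb was at -0.09, 0.16, 0.17 and -0.04 and C1qc at -0.02, 0.19, -0.04 and 0.08, so heart 1 was below 0 and heart 3 above 0 for all 3 chains. Their pool values were 0.08, -0.15 and -0.22.

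Serping1, the inhibitor of C1 proteases, had heart values of 0.09, 0.13, 0.06 and 0.04 (mean 0.08 ± 0.04), all above the pool at -0.22. Its arrays of opposite dye orientation lay on opposite sides of 0. With lateral RNA in Cy5 the gene was at -0.60, -0.43, -0.39 and 0.11, and with lateral RNA in Cy3 at 0.79, 0.68, 0.50 and -0.03. Each heart value is the mean of these 2 arrays. Cfb, the protease precursor of the alternative pathway, was at 0.15, -0.38, 0.50 and -0.01 (mean 0.07 ± 0.36), with the hearts on both sides of 0.

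Lists of further genes of the same pathways showed 0 called genes in each, against 0.0% of all genes. Over all genes 7.8% were above and 7.63% below 0 in all 4 hearts, the shares to set beside the counts of each list. Of 38 other macrophage and monocyte genes, 3 were above and 3 below 0 in all hearts, and the median of the means was 0.073. The medians of the single hearts lay on both sides of 0, at -0.03, 0.05, -0.06 and 0.095 in hearts 1, 3, 4 and 5. The median was 0.19 with lateral RNA in Cy5 and -0.02 with lateral RNA in Cy3. The inhibitory Fc receptor Fcgr2b was at 0.30 ± 0.06, with 0.60 and -0.01 in the Cy5 and Cy3 orientations of the lateral RNA, and Nos2, the inducible nitric oxide synthase, at 0.27 ± 0.11 (pool -0.52). Cx3cr1, the fractalkine receptor of monocytes and resident macrophages, was on the other side at -0.74, -0.10, -0.57 and -0.78 in hearts 1, 3, 4 and 5 (mean -0.55 ± 0.31, adjusted p 0.797). Its mean was -0.04 with lateral RNA in Cy5 and -1.05 with lateral RNA in Cy3. Of 7 genes of MHC class II, H2-DMb1, which helps to load peptides, was above 0 in every heart (0.29 ± 0.20) and Ciita, the master regulator of the class, was below (-0.24 ± 0.16). The 2 orientations of Ciita were opposite, at -0.79 and 0.32.

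Of 29 other complement genes, 4 were above and 2 below 0 in all hearts (median 0.032). The C1 proteases C1ra and C1s1 were at 0.16 ± 0.02 and 0.21 ± 0.14, and the lectin pathway protease Masp1 at 0.41 ± 0.27. For C1ra the mean was 0.53 with lateral RNA in Cy5 and -0.22 with lateral RNA in Cy3. Of 39 other cytokines and receptors, 4 were above and 3 below 0 in all hearts, among them the TWEAK receptor Tnfrsf12a at -0.25, -0.50, -0.66 and -0.45 in hearts 1, 3, 4 and 5 (mean -0.46 ± 0.17, adjusted p 0.797) and the alarmin Il33 at -0.36 ± 0.31. Of 20 other chemokines, 0 had one sign in all hearts (median 0). Of 21 chemokine receptors, 1 was above and 2 were below, including Ackr3, a scavenging receptor of Cxcl12, which stood at -0.16, -0.22, -0.21 and -0.27 in hearts 1, 3, 4 and 5 (mean -0.22 ± 0.04, adjusted p 0.797) against 0.03 in the pool and was below 0 on 8 of 8 arrays.

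Of 35 genes of NF-kappaB, Toll-like receptor and JAK-STAT signalling, 1 was above and 4 were below 0 in all hearts (median -0.025). The inhibitor Nfkbie was at 0.32 ± 0.22 and the NF-kappaB subunit Relb at -0.24 ± 0.17, the latter below 0 on 8 of 8 arrays. Of 17 interferon targets, 1 was above and 1 below, with Irf7, a regulator of type I interferon genes, at -0.53 ± 0.37 (pool 0.35) and the deubiquitinase Usp18 at 0.24 ± 0.18 (pool 0.32).

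Markers of other cell types were read beside these values. Smooth muscle markers had medians of 0.25, 0.11, 0.06 and 0.41 in hearts 1, 3, 4 and 5, with 4 of 7 genes above and 1 below 0 in all hearts. Fibroblast markers had -0.12, 0.09, -0.19 and -0.17, endothelial markers 0.03, 0.05, 0.03 and -0.0022, and adipocyte markers 0.02, 0.06, -0.02 and -0.07. Atrial markers had -1.35, -0.57, -0.08 and -2.27. By these medians hearts 5 and 1 were lowest for atrial markers, and hearts 1 and 5 were lowest for the macrophage median (-0.0047 and 0.22). The highest were heart 4 for the atrial median and heart 3 for the macrophage median. Among single atrial genes the highest heart differed, with Myl7 highest in heart 3 (-3.36) and Myl4 in heart 4 (-0.95). Medians for T cells, B cells, NK cells, dendritic cells and mast cells were -0.034, -0.063, -0.084, -0.068 and 0.090. Those for platelets and red blood cells were -0.13 and -0.035, the last over 3 genes. The mast cell protease Cma1 was at 0.45, 1.06, 0.54 and 0.67 (mean 0.68 ± 0.27, adjusted p 0.797), and at 1.42 and -0.05 in the 2 dye orientations. Of the 6 mast cell markers, 4 means were above and 2 below 0, the lowest at -0.43. The part of these cell types in the inflammatory ratios was not tested.

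The second comparison set the dyssynchronous hearts against the control pool. limma called 0 of the 43 genes for this difference, against 0.0% of all genes, and every adjusted p among the 43 was 1. At an unadjusted p under 0.05 there were 783 of all genes, of which Serping1 was the 1 member. The pool was taken to vary like 1 heart. All 4 hearts lay above the pool for 14 of the 43 genes (32.6%), against 17.7% of all genes, and below it for 6 (14%), against 18.1%. Of the 8 genes above 0 in all hearts, 5 were also above 0 in the pool and 3 (6.98% of the 43) were below 0 there, against 2.56% of all genes.

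Ptgs2 lay farthest above the pool, which was at -0.55, by 0.798 (95% interval -0.06 to 1.65). Its pool arrays were at -1.09 and exactly 0, and in each heart 1 of the 2 arrays was exactly 0. Il1b lay farthest below, at a difference of -0.75 (95% interval -1.77 to 0.28), from a pool at 0.46 whose arrays were at 1.20 and -0.28. Tnf and Cxcl10 differed from the pool by -0.73 and -0.66, each with an interval that spans 0. Il6 and Il6ra were above it by 0.66 and 0.61, from pool values of -0.73 and -0.86. The pool arrays of Il6 were at -1.46 and exactly 0. Of the cytokines and their receptors, 4 of 8 were below the pool in all hearts (Tnf, Il1b, Il18 and Il10) and 1 above (Il6ra). Of the chemokines, 5 of 14 were above in all hearts (Ccl8, Ccl9, Cxcl1, Cxcl12 and Cxcl14) and 1 below (Ccl7).

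Cxcl1 differed from the pool by 0.47 (95% interval -0.02 to 0.95), Ccl9 by 0.34 (-0.07 to 0.76) and Serping1 by 0.30 (0.0015 to 0.59). The interval of Serping1 excludes 0, but each of its heart values averages 2 arrays on opposite sides of 0. Its small SD between hearts therefore does not show even arrays. The macrophage genes were close to the pool, with differences of 0.10 for Cd163 (95% interval -0.33 to 0.53), 0.15 for Mrc1 (-0.30 to 0.60) and 0.19 for Lyz2 (-0.35 to 0.74). These intervals span 0, and those of Lyz2 and Mrc1 also include a 1.5-fold difference. Fcer1g was the macrophage gene with all hearts above the pool (-0.05), by 0.43 (95% interval -0.38 to 1.24). For the C1q chains the differences were 0.05, 0.20 and 0.28.

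**Figure D4:**
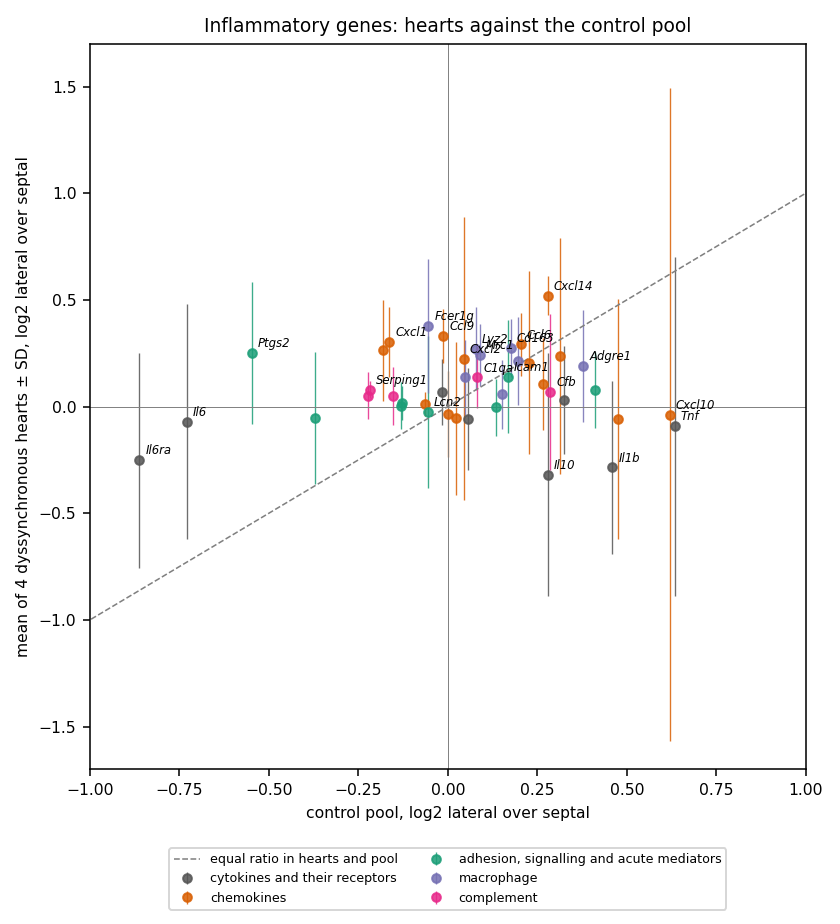
The mean log2 ratio of lateral over septal wall in the 4 dyssynchronous hearts (vertical axis, bars are the SD over hearts) is plotted against the ratio in the control pool (horizontal axis), with a dashed line where both are equal. Cxcl14 lies above 0 on both axes (0.52 and 0.28), Ptgs2 lies above the line at a pool ratio of -0.55, and Il1b, Tnf and Cxcl10 lie below it.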

How the data were processed

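Ratios of lateral and septal RNA were measured on 10 two-colour arrays, read with Agilent Feature Extraction 7.5 per the submitters' processing notes. The deposited values are signed, have a median of 0 on each array and were read as log10 of Cy5 divided by Cy3. What base, direction, dye normalization and filters the authors used is not given in the sources used here. Values of -2 occurred only in features without a gene name and were treated as missing. Between 7.69% and 15.1% of features on an array were exactly 0. Values were multiplied by 3.32, turned by the dye labels, averaged over features of a gene and over the 2 arrays of a heart. Of 22393 features, 18218 had 1 gene symbol, 16 several and 4159 none.

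The 4 hearts and the pool were fitted across all 16504 genes with the package limma, version 3.58.1, under R 4.3.3 and with statmod 1.5.0 for blocks. The moderated test was two-sided, with Benjamini-Hochberg adjustment. The fit was tested on simulated data. The hearts are separate animals, and precision is limited by their number and by the single pool.

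The members, lists and tests were chosen with earlier results of these data known. All members could be named. Values per heart are given for those of one sign in all hearts, the 2 of each group with the smallest p and the 2 with the largest SD, and the 6 farthest from the pool, and other members given per heart were named after their values were seen. Of each further list, up to 3 genes of one sign in all hearts and smallest p were eligible.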

Additional observations from a re-analysis of the deposited data

Results flagged for a closer look

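The value of Ccl7 in heart 1, -0.217, stood far from hearts 3, 4 and 5, which lay between 0.18 and 0.24. Over the 43 genes and 5 group medians, there were 48 such sets of 4 hearts. In 1 of them a heart stood apart, and at a rate of about 1 in 20 chance alone gives 2.4.

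All 4 hearts were above 0 and the control pool below 0 for 3 of the 43 genes (6.98%), against 2.56% of all genes. The mean of the hearts minus the pool was 0.344 for Ccl9, 0.466 for Cxcl1 and 0.296 for Serping1. limma gave an adjusted p of 1 for each of these differences, and the pool is a single sample. The pool value of Ccl9, -0.013, is next to 0. For Serping1 the arrays of opposite dye orientation lay on opposite sides of 0 in all 4 hearts.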

How the results depend on the processing

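No paired analysis was possible because, for hearts against pool, the single pool shares no heart number. The comparison of the walls is paired within each array. The macrophage median stayed above 0 in the alternative runs with turned signs, between 0.08 (lateral RNA in Cy3 only) and 0.36 (Cy5 only). It was the same 0.23 with array medians subtracted, exact zeros left out, the probe median or 1 probe per gene. Those runs could not move it, because array medians were already 0 and each macrophage gene had 1 feature and no exact zero. With the signs left as deposited it was 0.14. In that run an equal wall difference on both arrays of a heart cancels in their mean. Values from that run therefore do not measure the wall difference. Among genes whose dye swaps had one sign in 3 hearts, the macrophage median rested on 3 macrophage genes. limma run on separate arrays, blocked by heart, called 20 genes with a dye term and 23 without, 1 of them a member in each case (Cxcl14, adjusted p 0.0491 and 0.0156), and 3 genes against the pool in both, where 1 was called without moderation. The other alternatives called 0 genes in both comparisons, with 310 to 3140 genes at an unadjusted p under 0.05 between the walls and 76 to 1047 against the pool. The 3140 came with the signs left as deposited, and the 310 and 76 from a run over 2923 genes. The members of one sign in all hearts numbered 16 with the signs left as deposited and 5 among genes whose dye swaps had one sign in 3 hearts. They numbered 9 to 18 with 1 heart left out, 18 without heart 1 and 13 without heart 3, over 3 hearts each, which is easier to meet. The cytokine and chemokine median of 0.021 became 0.24 with lateral RNA in Cy5 only, 0.12 with the signs as deposited and 0.11 over the 9 genes of even dye swaps. It was -0.011 with one probe per gene, and 0.0017 without heart 5 to 0.056 without heart 4, with 0.044 without heart 1 and 0.039 without heart 3. The complement median of 0.068 became 0.15 with lateral RNA in Cy3 only and -0.0098 with the signs as deposited. Of the genes above 0 in all hearts, Serping1 turned with lateral RNA in Cy5 only (-0.33), and the cause was not tested. With the signs as deposited, Ccl6 was at -0.033 and Serping1 at -0.41. These values do not show a turned wall difference, because an equal wall difference cancels there. Ccl6 had means of 0.26 with lateral RNA in Cy5 and 0.32 with lateral RNA in Cy3. Chosen after the data were seen, leaving out Fcer1g gave a macrophage median of 0.21, and the 17 cytokine and chemokine genes with no exact zero had a median of 0.068. Without channel intensities, which were not analysed here, no filter on signal over background was possible.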
